A study of Mus musculus with 8 samples.

Results

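The tumour suppressor p53, its main regulators and a set of its target genes were followed through the first cell cycles of the mouse embryo. The members were chosen by symbol and numbered 10 of the 22667 genes listed in each expression table: Trp53, which encodes p53, the regulators Mdm2 and Mdm4, and the targets Cdkn1a, Ccng1, Phlda3, Btg2, Sesn2, Ei24 and Rrm2b. All 10 were found and all 10 passed the filter on low counts. The tables came from 8 libraries of polyadenylated RNA from whole embryos of B6CBA F1 crosses, each a pool of 40 embryos from 3 independent experiments. At the 2-cell stage, 24 h after injection, the embryos had been injected as zygotes with mRNA for Snrpb and Snrpd2 together, for Snrpb, for Snrpd2, or for the fluorescent protein mCherry as the control. At the 1-cell stage, 5 h after injection, the same 4 injections were sampled. Snrpb and Snrpd2 encode Sm proteins, which assemble into a ring on spliceosomal small nuclear RNAs. The series was set up to ask what an excess of them does to splicing and to DNA damage signalling as the embryo begins transcription. Every embryo was injected, so the mCherry libraries are injected controls, and an uninjected group was not analysed here.

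p53 is a transcription factor that is kept scarce in unstressed cells: MDM2 attaches ubiquitin to it and so marks it for degradation, and MDM4, a relative of MDM2, binds it and blocks its activation domain. Damaged DNA activates kinases that free p53 from both, and p53 then switches on genes that arrest the cell cycle, repair DNA or start apoptosis, along with Mdm2 itself, which closes a negative feedback loop. Mouse embryos that lack Mdm2 or Mdm4 die early in a p53-dependent way, and zygotes carry maternal RNA until the embryonic genome is activated, mainly at the 2-cell stage.

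Counted reads per library ranged from 39492734 to 59979046. With 1 library per condition no condition had a replicate, and stage cannot be told apart from time after injection. Levels are given as deposited in cRPKM, an RPKM value (reads per kilobase, relative to library size). The length counted for each gene was not given in the sources used here, and it need not be that of the whole gene. In the 2-cell library given both Sm mRNAs, Hba-a2 had 42.73 cRPKM on 27 reads, and Tnfaip6 4.25 cRPKM on 266 reads. Sums of cRPKM over markers can thus rest on few reads. Oocyte and early embryo markers were detected in every library (11 of 11 genes, 4387 to 5221 summed cRPKM at the 2-cell stage and 6979 to 7890 at the 1-cell stage), and the summed cRPKM of 7 markers of the 2-cell embryo was 793 to 1075 at the 2-cell stage and 11.5 to 17.5 at the 1-cell stage. Of 15 cumulus and granulosa markers 14 or 15 had reads, with sums of 24.1 to 34.7 cRPKM in 2-cell and 22.6 to 48.0 cRPKM in 1-cell libraries. The sums of 8 sperm markers were 3.19 to 5.38 cRPKM in 2-cell and 3.42 to 4.6 cRPKM in 1-cell libraries, with 4 to 6 genes read and Smcp at 0 reads throughout. The sums of 7 blood markers were 39.5 to 50.6 cRPKM in 2-cell libraries, of which Hba-a2 alone gave 38.2 to 43.2 on 26 to 30 reads, and 4.89 to 25.1 cRPKM in 1-cell libraries, of which Cd52 alone gave 4.86 to 23.83, with 2 to 4 genes read and Hbb-bs and Hbb-bt at 0 reads in all 8. The sums of 8 fibroblast and oviduct markers were 30.1 to 39.2 cRPKM in 2-cell and 5.19 to 17.3 cRPKM in 1-cell libraries, with 5 to 7 genes read and Col3a1 at 0 reads in all 2-cell libraries. Most of these came from Epcam (9.39 to 13.87 cRPKM) and Krt8 (18.37 to 27.25 cRPKM) in 2-cell libraries, and from Krt8 (4.31 to 16.46 cRPKM) in 1-cell libraries. The part of these other cells in the results was not tested. The injected messages were present: Snrpb had 876 cRPKM or more in each library given it and at most 26.2 cRPKM in the others, and Snrpd2 had 4726 cRPKM or more in each library given it and at most 10.6 cRPKM in the others. The 1-cell mCherry library stood slightly apart, with correlations across genes of 0.9928 to 0.9942 with the other 1-cell libraries, against 0.9961 to 0.9966 among those. Every call on a member between stages was the same without it.

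p53 binds DNA as a tetramer through pairs of a 10-base element, the p53 consensus decamer. The 250 bases upstream of RefSeq transcript starts (mouse build GRCm38.p6) were searched for this decamer, which reads the same on both strands, so that 1 search covered both. Windows were given for 9 of the 10 members (11 windows). The decamer was found without mismatch in 5 of the windows, 1 each of Trp53, Mdm2, Cdkn1a, Ccng1 and Ei24. This was 45.5% of the members' windows against 7.13% of all 32851 windows searched. Most members were chosen as targets of p53, so the higher share describes that choice and is not independent support. The stretches that hold the decamer are shown because they carry the match, which describes letters and not a bound site. Capitals mark exact decamers and, in Cdkn1a and Ccng1, also a decamer with 1 mismatch that forms a pair with an exact one.
Trp53: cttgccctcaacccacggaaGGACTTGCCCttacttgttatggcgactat
Mdm2: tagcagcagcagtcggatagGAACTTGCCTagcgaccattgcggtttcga
Cdkn1a: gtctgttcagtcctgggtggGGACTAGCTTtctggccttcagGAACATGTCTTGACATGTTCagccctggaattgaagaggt
Ccng1: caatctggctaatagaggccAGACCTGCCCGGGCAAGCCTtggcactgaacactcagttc
Ei24: ccagctgccccgtgcggcccGGGCATGCCC
The sequences are from RefSeq, in the direction of transcription: Trp53 at chr11:69580264-69580313 (plus strand), Mdm2 at chr10:117710915-117710964 (minus strand), the first of the 2 Cdkn1a starts at chr17:29090886-29090967 (plus strand), Ccng1 at chr11:40755442-40755501 (minus strand) and Ei24 at chr9:36797335-36797364 (minus strand). A pair of decamers, with at most 1 mismatch each and a spacer of at most 13 bases, was found in 2 members and in 2.2% of all windows. Cdkn1a held 1 pair without mismatch separated by 12 bases, an arrangement of exact decamers seen with some spacer in 0.0639% of all windows, and a second pair with 1 mismatch and no spacer. Ccng1 held 1 pair with 1 mismatch and no spacer. No exact decamer was found in the windows of Mdm4, Phlda3, Btg2 and Sesn2, or in that of the other Cdkn1a start. This says only that these letters are not in those bases.

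Trp53 and its targets moved apart between the stages. The transcript of p53 was 3.98-fold less abundant in 2-cell embryos than in zygotes, while both regulators and 5 of the 7 targets were more abundant, led by Sesn2, Cdkn1a and Ccng1. Across all 10 members, 7 rose, 1 fell and 2 did not pass the test, with a median log2 change of 0.90. Among all 16264 genes tested 38.1% rose and 32% fell, with a median of 0.15, so a change between these stages is common, and the members' counts are read against that. All 4 2-cell libraries lay above all 4 1-cell libraries in cRPKM for 7 members and below them for 1, as they did for 42.8% and 24.8% of all genes tested. Library totals in place of TMM scaling moved the median of all genes to 0.41, and no called member changed its call. Fold changes and adjusted p-values, called below 0.05, are from edgeR's quasi-likelihood test with TMM scaling of the counts and the injections as a second term, so the 4 differently injected libraries of a stage stand in for replicates. In these whole embryos fewer cells with a transcript and less of it per cell cannot be told apart. Every scaling used here is relative to the polyadenylated RNA of a library. Rises and falls are therefore changes relative to that RNA, and amounts per embryo are not known from them.

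**Figure D1:**
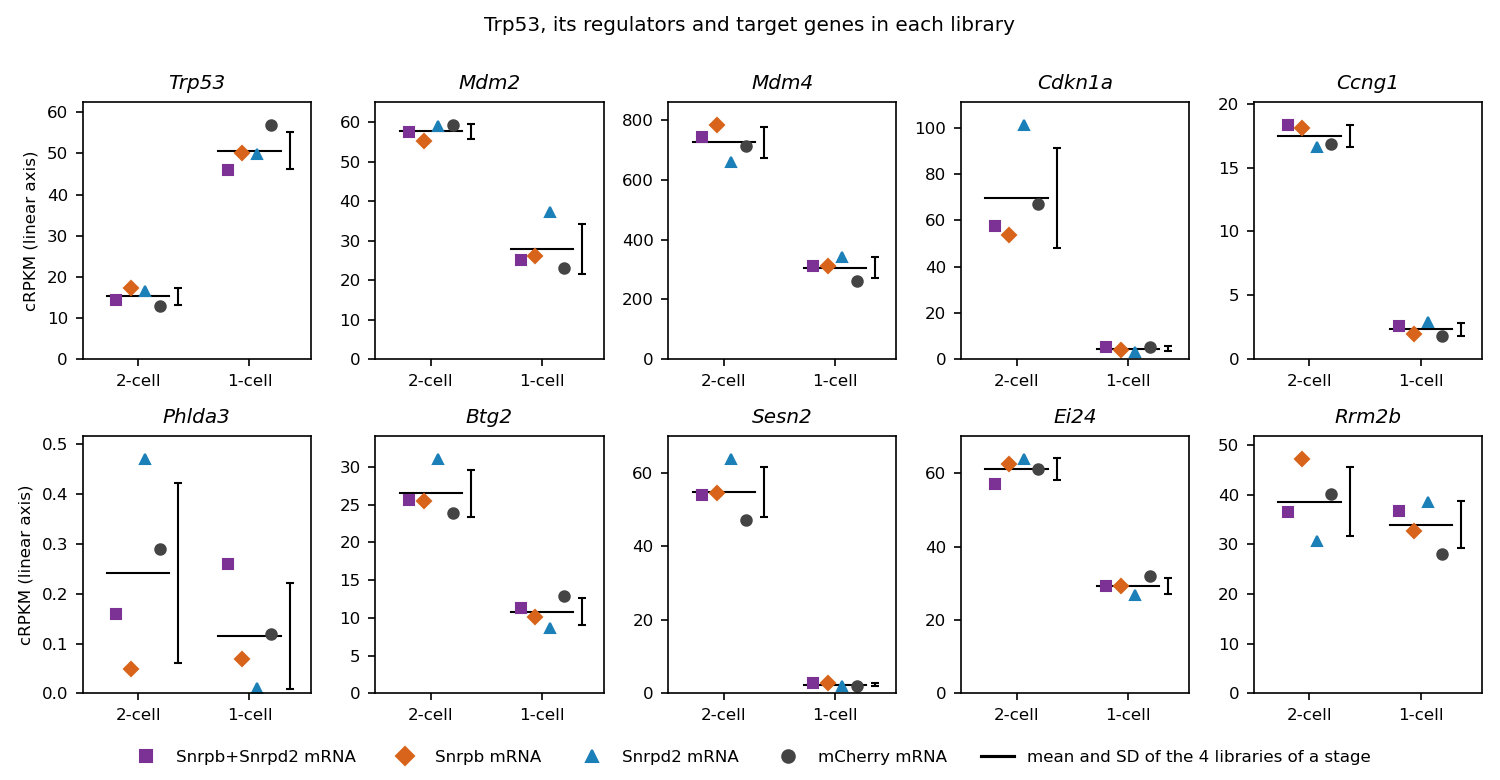
Level of each of the 10 members in each of the 8 libraries, in cRPKM on linear axes that start at 0 and differ between panels; colours and shapes give the injection, and lines and bars give the mean and SD of the 4 libraries of a stage. The 2-cell libraries lie below all 1-cell libraries for Trp53 (12.86 to 17.35 cRPKM in 2-cell against 46.04 to 56.92 cRPKM in 1-cell libraries) and above all of them for 7 genes, and the stages overlap for Phlda3 and Rrm2b.

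Trp53 (ENSMUSG00000059552) had 14.51, 17.35, 16.48 and 12.86 cRPKM in the 2-cell libraries given Snrpb and Snrpd2, Snrpb, Snrpd2 and mCherry, against 46.04, 50.12, 49.81 and 56.92 cRPKM in the 1-cell libraries in the same order. The stages did not overlap, and the mCherry libraries held both the lowest and the highest value of the 8. Trp53 fell 3.98-fold, a log2 change of -1.99 (SE 0.13, adjusted p = 4.6e-07), and lay lower in 4 of 4 injections. The ratio of the 2-cell to the 1-cell library was 0.273 for both Sm mRNAs, 0.28 for Snrpb, 0.265 for Snrpd2 and 0.196 for mCherry. At the 1-cell stage Trp53 stood above 92.3% of genes with a value, and at the 2-cell stage above 81.6%.

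Mdm4 (ENSMUSG00000054387), the inhibitor that covers the activation domain of p53, was the most abundant member in every library. It had 743.20, 782.91, 659.40 and 712.99 cRPKM in the 2-cell libraries (both Sm mRNAs, Snrpb, Snrpd2, mCherry), against 310.76, 312.62, 342.37 and 260.60 cRPKM in the 1-cell libraries, with no overlap. It rose 1.98-fold (log2 change 0.99, SE 0.125, adjusted p = 5.41e-05). Mdm4 stood above 99.7% of genes at the 2-cell stage and above 99.1% at the 1-cell stage, so it belonged to the most abundant messages of the embryo at both.

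Mdm2 (ENSMUSG00000020184), the ubiquitin ligase of p53 and also its target, had 57.50, 55.21, 59.10 and 59.31 cRPKM in the 2-cell libraries, against 25.15, 26.14, 37.28 and 23.01 cRPKM in the 1-cell libraries. The 2-cell values were tightly grouped, and in the 1-cell libraries the one given Snrpd2 lay well above the other 3. Mdm2 rose 1.76-fold (log2 change 0.82, SE 0.143, adjusted p = 0.000515). The ratio between stages was smallest in the Snrpd2 pair of libraries, 1.27, against 1.98 with both Sm mRNAs, 1.71 with Snrpb and 2.24 with mCherry.

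The regulators rose while Trp53 fell, and the ratio of Mdm2 to Trp53 crossed 1 between the stages. The ratio of Mdm2 to Trp53, both in cRPKM and so per length, was 3.96, 3.18, 3.59 and 4.61 in the 2-cell libraries (both Sm mRNAs, Snrpb, Snrpd2, mCherry) and 0.546, 0.522, 0.748 and 0.404 in the 1-cell libraries. Thus Mdm2 had a higher cRPKM than Trp53 in every 2-cell library and a lower one in every 1-cell library. Because the counted lengths were not given, numbers of transcripts of different genes cannot be compared from these values. The ratio of Mdm4 to Trp53 was 51.2, 45.1, 40.0 and 55.4 in the 2-cell libraries and 6.75, 6.24, 6.87 and 4.58 in the 1-cell libraries, so Mdm4 exceeded Trp53 at both stages and by more at the 2-cell stage. By contrast, the ratio of Mdm4 to Mdm2 overlapped between stages, at 11.2 to 14.2 in the 2-cell and 9.18 to 12.4 in the 1-cell libraries. These are ratios of messenger RNA, and protein was not measured.

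**Figure D2:**
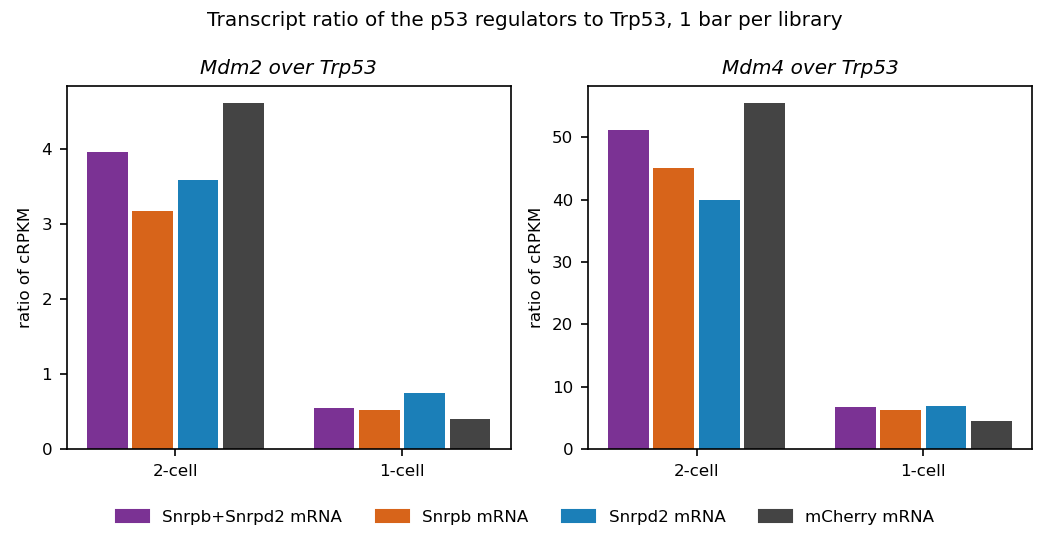
Ratio of Mdm2 to Trp53 (left) and of Mdm4 to Trp53 (right), each the quotient of 2 cRPKM values in 1 library, on linear axes from 0, with 1 bar per library and no error bar because each condition has 1 library. The Mdm2 ratio runs from 3.18 to 4.61 for 2-cell and from 0.404 to 0.748 for 1-cell embryos, and the Mdm4 ratio from 40.0 to 55.4 for 2-cell and from 4.58 to 6.87 for 1-cell embryos.

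Of the 7 target genes among the members, Cdkn1a, Ccng1 and Btg2 act on the cell cycle, and these 3 rose. Cdkn1a (ENSMUSG00000023067), whose product p21 inhibits cyclin-dependent kinases, had 57.45, 53.65, 101.18 and 66.86 cRPKM in the 2-cell libraries, against 5.15, 4.15, 3.33 and 5.46 cRPKM in the 1-cell libraries. The stages were far apart, and the Snrpd2 libraries held both the highest 2-cell and the lowest 1-cell value. Cdkn1a rose 12.6-fold (log2 change 3.66, SE 0.23, adjusted p = 3.5e-07), and its ratio between stages was 24.4 in the Snrpd2 pair of libraries and 9.66 to 10.6 in the other 3 pairs. In the GENCODE vM21 annotation Cdkn1a shares 273 exonic bases with a transcript on the opposite strand, AC167363.2, and the use of strand in counting is not given in the sources used here.

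Ccng1 (ENSMUSG00000020326), cyclin G1, which takes part in the regulation of MDM2, had 18.33, 18.12, 16.59 and 16.82 cRPKM in the 2-cell libraries, against 2.61, 1.98, 2.95 and 1.82 cRPKM in the 1-cell libraries. The 2-cell values lay close together, while the 1-cell values ran from 1.82 to 2.95 cRPKM, with no overlap between stages. Ccng1 rose 6.34-fold (log2 change 2.66, SE 0.164, adjusted p = 3e-07). Btg2 (ENSMUSG00000020423), an antiproliferative protein that promotes shortening of mRNA tails, had 25.59, 25.50, 31.00 and 23.83 cRPKM in the 2-cell libraries, against 11.36, 10.17, 8.69 and 12.90 cRPKM in the 1-cell libraries. It rose 2.06-fold (log2 change 1.04, SE 0.147, adjusted p = 0.000113), and as for Cdkn1a the Snrpd2 libraries held its highest 2-cell and its lowest 1-cell value.

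Sesn2 (ENSMUSG00000028893), a stress-induced inhibitor of mTORC1 signalling, changed more than any other member. It had 54.00, 54.38, 63.64 and 47.01 cRPKM in the 2-cell libraries, against 2.71, 2.72, 2.15 and 2.05 cRPKM in the 1-cell libraries. The stages did not overlap, and the lowest ratio between stages, 16.1 in the Snrpb pair, was above every such ratio of the other members with at least 50 reads except that of Cdkn1a in the Snrpd2 pair. Sesn2 rose 19.0-fold (log2 change 4.25, SE 0.142, adjusted p = 1.54e-08).

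Of the remaining targets Ei24 rose, and Rrm2b and Phlda3 did not pass the test. Ei24 (ENSMUSG00000062762), a membrane protein of the endoplasmic reticulum with roles in autophagy and apoptosis, had 56.92, 62.40, 63.77 and 61.14 cRPKM in the 2-cell libraries, against 29.14, 29.30, 26.81 and 32.08 cRPKM in the 1-cell libraries. The stages did not overlap, and Ei24 rose 1.74-fold (log2 change 0.80, SE 0.107, adjusted p = 7.9e-05). It shares 324 exonic bases with Gm26787 on the opposite strand.

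Rrm2b (ENSMUSG00000022292), the p53-inducible subunit of ribonucleotide reductase that supplies nucleotides for DNA repair, had 36.57, 47.17, 30.62 and 40.07 cRPKM in the 2-cell libraries, against 36.83, 32.65, 38.51 and 27.98 cRPKM in the 1-cell libraries. The stages overlapped, and the 4 injections split: the ratio between stages was 1.17 with Snrpb and 1.25 with mCherry, but 0.86 with both Sm mRNAs and 0.637 with Snrpd2. Its log2 change of -0.08 (SE 0.161, adjusted p = 0.666) had a 95% interval of -0.44 to 0.28. Its count is uncertain, because the pseudogene Gm8616 matches it at 96.1% over 1051 bases and because it shares 734 exonic bases with Gm49085 on the opposite strand.

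Phlda3 (ENSMUSG00000041801), an inhibitor of AKT signalling, was close to the limit of detection. It had 9, 3, 29 and 17 reads (0.16, 0.05, 0.47 and 0.29 cRPKM) in the 2-cell libraries, against 18, 6, 1 and 9 reads (0.26, 0.07, 0.01 and 0.12 cRPKM) in the 1-cell libraries, where 3 reads is the limit that a count of 0 allows. The ranges overlapped, and the log2 change of 0.79 (SE 0.93, adjusted p = 0.464) was positive in 2 of 4 injections. A difference was not detectable at this depth.

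Set in order of level, Mdm4 (725 ± 52.1 cRPKM, SD, n = 4 libraries) stood above all other members at the 2-cell stage. Cdkn1a (69.8 ± 21.7), Ei24 (61.1 ± 2.96), Mdm2 (57.8 ± 1.89), Sesn2 (54.8 ± 6.82), Rrm2b (38.6 ± 6.91) and Btg2 (26.5 ± 3.12) followed, each with a range that overlapped that of the next. Ccng1 (17.5 ± 0.887) and Trp53 (15.3 ± 2.01) overlapped each other below these, and Phlda3 (0.243 ± 0.181) was last. At the 1-cell stage Mdm4 (307 ± 33.9 cRPKM) was followed by Trp53 (50.7 ± 4.53), then by the overlapping Rrm2b (34.0 ± 4.71), Ei24 (29.3 ± 2.16) and Mdm2 (27.9 ± 6.39), by Btg2 (10.8 ± 1.79), by Cdkn1a (4.52 ± 0.972), by the overlapping Sesn2 (2.41 ± 0.357) and Ccng1 (2.34 ± 0.531), and by Phlda3 (0.115 ± 0.107). Trp53 therefore held the ninth place at the 2-cell stage and the second at the 1-cell stage.

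Across the 8 libraries, log2 levels of Trp53 ran against those of 8 members (Pearson r between -0.987 for Ccng1 and Sesn2 and -0.427 for Phlda3) and had an r of 0.164 with Rrm2b. These 8 points share 2 stages, which account for most of the spread, so the values are a description. The genes whose pattern was most like that of Trp53 among 15969 searched were Cog4 (r = 0.9988), Mettl25 (0.9981) and Rrm1 (0.9981). For Mdm2 they were E330034G19Rik (0.9958), Plekha5 (0.995) and Gmnn (0.9936), and for Cdkn1a Rpl8 (0.9991), Dynlt1c (0.9987) and Sfn (0.9981). An r over 0.95 was reached by 2662 genes for Trp53, by 2493 for Cdkn1a and by 411 for Mdm2, so many genes follow the same difference between stages.

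The wider pathway was set beside the members with 138 further genes in 7 lists, of which 137 were tested. Of these 57 rose, 49 fell and 31 did not pass, with a median log2 change of 0.23, which is close to the 38.1% that rose, the 32% that fell and the median of 0.15 over all genes. The counts of each list below are given beside the same background, and differences between lists were not tested. Among 15 targets in cell cycle arrest 10 rose, 3 fell and 2 did not pass (median 2.12). E2f7, a transcriptional repressor of cell cycle genes, had 2.92 ± 1.12 cRPKM in 2-cell and 0.070 ± 0.0283 cRPKM in 1-cell libraries (SD, n = 4 each, log2 change 5.03, adjusted p = 4.57e-07), and Plk2, a polo-like kinase, had 29.5 ± 5.68 cRPKM in 2-cell and 2.15 ± 0.0365 cRPKM in 1-cell libraries (log2 change 3.50, adjusted p = 3.14e-08). Dusp1, a phosphatase of MAP kinases, fell 5.06-fold and Gtse1, a protein of S and G2 phase that binds p53, 4.02-fold.

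Among 24 targets in apoptosis 15 rose, 3 fell and 6 did not pass (median 1.45). Bbc3, which encodes the BH3-only protein PUMA, had 5.71, 6.91, 6.75 and 5.65 cRPKM in the 2-cell libraries, against 0.16, 0.17, 0.08 and 0 cRPKM in the 1-cell libraries (log2 change 5.73, adjusted p = 2.64e-06), and its reads were 398 to 532 per 2-cell library and 0 to 18 per 1-cell library. Eda2r, a death receptor of the TNF receptor family, had 170 reads over the 4 2-cell libraries and 4 over the 1-cell libraries (adjusted p = 0.000241). Triap1, an inhibitor of apoptosis, fell 2.31-fold. Aifm2 had 34 reads over the 2-cell and 109 over the 1-cell libraries, and its fall (log2 change -1.64, adjusted p = 0.0239) was lost with library totals and when either Snrpb library, either mCherry library or the 1-cell Snrpd2 library was left out (adjusted p up to 0.0903).

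Among 11 targets in DNA repair 10 fell and 1, Polh, rose (median -1.09). Ercc5, the nuclease XPG of nucleotide excision repair, had 0.26, 0.47, 0.57 and 0.63 cRPKM in the 2-cell libraries, against 13.69, 11.10, 12.79 and 11.54 cRPKM in the 1-cell libraries (log2 change -4.95, adjusted p = 6.12e-08). Polh, the translesion polymerase eta, rose 3.62-fold. Among 22 targets in metabolism, redox control and autophagy 7 rose, 5 fell and 10 did not pass (median 0.42), while limma on log2 cRPKM had 11 rise with either pseudocount. Ndrg1 (log2 change 5.00) and Pank1 (3.74), a kinase of coenzyme A synthesis, rose most, and Ddit4 (-2.70), an inhibitor of mTORC1, and Aldh4a1 (-1.71), an enzyme of proline breakdown, fell most.

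**Figure D3:**
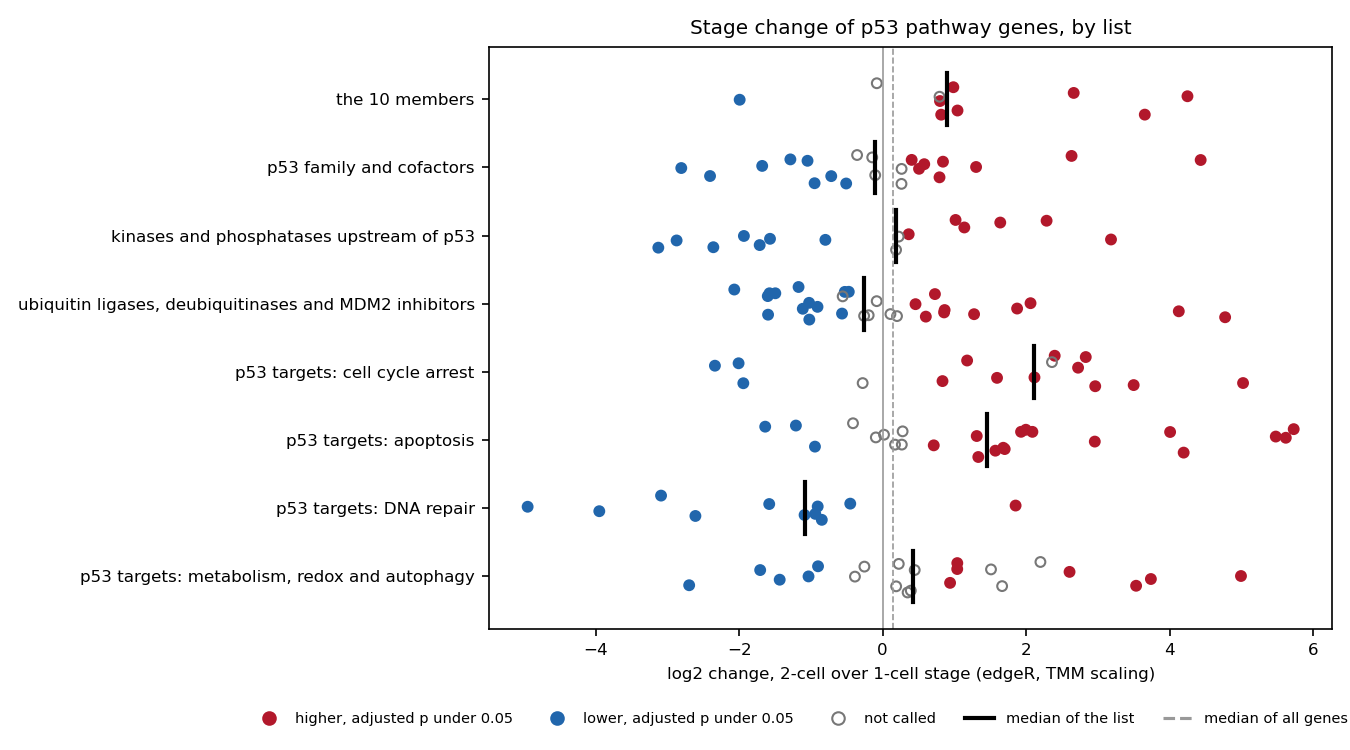
Log2 change between stages (2-cell over 1-cell, edgeR with TMM scaling) of the 10 members and of the 7 wider p53 lists, with 1 point per gene: filled red points rose, filled blue points fell and open points did not pass an adjusted p of 0.05. Thick bars are list medians (0.90 for the members, 2.12 for cell cycle arrest, 1.45 for apoptosis, -1.09 for DNA repair), and the dashed line is the median of all genes, 0.15.

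Of 15 kinases and phosphatases upstream of p53, 6 rose, 7 fell and 2 did not pass (median 0.19). Over all genes 38.1% rose and 32% fell. Chek2, a checkpoint kinase that phosphorylates p53, had 8.58 ± 1.59 cRPKM in 2-cell and 0.795 ± 0.215 cRPKM in 1-cell libraries (log2 change 3.18, adjusted p = 6.15e-07). Dyrk2 rose on 96 reads over the 2-cell and 23 over the 1-cell libraries (adjusted p = 0.00881). The mitotic kinases Aurka and Plk1 fell: Aurka had 43.8 ± 5.76 cRPKM in 2-cell and 319.6 ± 44.4 cRPKM in 1-cell libraries (log2 change -3.13, adjusted p = 3.78e-08), and Plk1 had 47.3 ± 3.004 cRPKM in 2-cell and 289.8 ± 23.9 cRPKM in 1-cell libraries (log2 change -2.87, adjusted p = 3.23e-08).

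Of 29 ubiquitin ligases, deubiquitinases and inhibitors of MDM2, 10 rose, 13 fell and 6 did not pass (median -0.26). Yy1, a transcription factor that also promotes the binding of MDM2 to p53, rose (log2 change 4.78, adjusted p = 3.28e-07). Cdkn2a, whose alternative reading frame product p19ARF inhibits MDM2, was listed with 76 reads over the 2-cell and 5 over the 1-cell libraries (adjusted p = 0.00314). The gene also encodes p16INK4a, and the gene totals do not separate the products. The ligase Rffl fell 4.19-fold and the deubiquitinase Usp4 3.03-fold. Of 21 relatives and cofactors of p53, 8 rose, 8 fell and 5 did not pass (median -0.10). Trp53bp2, which encodes the p53-binding protein ASPP2, had 3.10 ± 0.588 cRPKM in 2-cell and 0.128 ± 0.0789 cRPKM in 1-cell libraries (log2 change 4.43, adjusted p = 2.02e-06), and the lysine methyltransferase Setd7 rose on 123 reads over the 2-cell and 24 over the 1-cell libraries (adjusted p = 0.00403, and 0.0813 in limma with a pseudocount of 1). Banp fell 7-fold, and Trp53bp1, which encodes the double-strand break protein 53BP1, fell 5.30-fold.

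A further question was whether the Sm mRNAs changed the levels of these genes. The values are totals per gene, so a change in the splicing of a gene cannot be seen in them. None of the 10 members passed the test in any comparison of Sm-injected with mCherry embryos, and neither did any of the wider lists' genes. Over both stages together, the 2 stages stood in for replicates of an injection. The share of all 16264 genes that passed was 0% for Snrpb and Snrpd2 together, 0% for Snrpb and 0.00615% for Snrpd2, which was 1 gene. With 0% for Snrpb, the injected Snrpb message itself was not called there. It had 1704.01 (2-cell) and 43849.91 cRPKM (1-cell) in the Snrpb libraries, against 17.40 and 7.96 cRPKM with mCherry. A missing call in these comparisons therefore does not show that a gene was unchanged. For the 3 Sm libraries of a stage against its mCherry library, the share of 16867 genes was 0% at the 2-cell stage, 0% at the 1-cell stage and 0% for the difference between the stages. An unadjusted p under 0.05 in edgeR was reached by 506, 583 and 497 genes in the first 3 comparisons and by 637, 2618 and 1648 genes in the others, and among these the members numbered 1, Ccng1 at the 1-cell stage. DESeq2 called 540 genes at the 1-cell stage, 63 for the difference between stages and at most 2 in each other comparison, and limma at most 2 in any, with 0 members by either tool. These comparisons share their mCherry libraries, and at each stage rest on 1 of them, which was assumed to vary like the Sm libraries.

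At the 2-cell stage the members' log2 changes with any Sm injection ran from -0.38 to 0.28, with a median of 0.01 against 0.02 over all genes. Trp53 was higher than mCherry (12.86 cRPKM) in 3 of 3 Sm libraries (14.51, 17.35 and 16.48 cRPKM), with a log2 change of 0.28 (SE 0.172, adjusted p = 1) and a 95% interval of -0.10 to 0.66. Sesn2 (0.24, interval -0.13 to 0.61) and Btg2 (0.15, -0.24 to 0.55) also lay above mCherry in 3 of 3 libraries, and Mdm2 (-0.09, -0.54 to 0.36) below it in 3 of 3, so that 4 of 10 members lay on one side of mCherry, against 46.5% of all genes tested. Leaving out Phlda3, the members' intervals reached from -0.65 to 0.71, both bounds from Cdkn1a. These data thus leave room for 2-cell differences of that size.

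At the 1-cell stage the log2 changes ran from -0.35 to 0.49, with a median of 0.16 against 0.00 over all genes, and 9 of 10 members, all but Phlda3, lay on one side of mCherry in 3 of 3 Sm libraries, as did 62.8% of all 16867 genes tested. Lower were Trp53 (-0.19, adjusted p = 0.603), Cdkn1a (-0.35, 0.654), Btg2 (-0.33, 0.397) and Ei24 (-0.14, 0.669). Higher were Mdm2 (0.39, 0.397), Mdm4 (0.34, 0.347), Ccng1 (0.49, 0.313), Sesn2 (0.33, 0.406) and Rrm2b (0.40, 0.415). Since all 3 libraries were set against the same mCherry library, which stood slightly apart, that they lie on one side is not independent support. The summed markers of cumulus and granulosa cells and of blood were also lowest in that library: cumulus and granulosa markers summed to 48.0, 37.1 and 32.1 cRPKM in the 1-cell libraries given both Sm mRNAs, Snrpb and Snrpd2, against 22.6 cRPKM with mCherry, and blood markers to 25.1, 13.6 and 15.8 cRPKM, against 4.89 cRPKM with mCherry. Nearly all of the blood sums came from Cd52 (23.83, 13.52 and 15.77 cRPKM, against 4.86 cRPKM with mCherry). Single cumulus and granulosa markers such as Star (1.41 cRPKM) and Kitl (0.77 cRPKM) were instead highest with mCherry. The sums of sperm (4.51 cRPKM) and of fibroblast and oviduct markers (6.19 cRPKM) were not lowest with mCherry. The part of such other cells in these differences was not tested. Leaving out Phlda3, the intervals reached from -1.09 for Cdkn1a to 0.98 for Ccng1. The difference between stages for Trp53 was 0.47 (SE 0.237, adjusted p = 0.54).

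**Figure D4:**
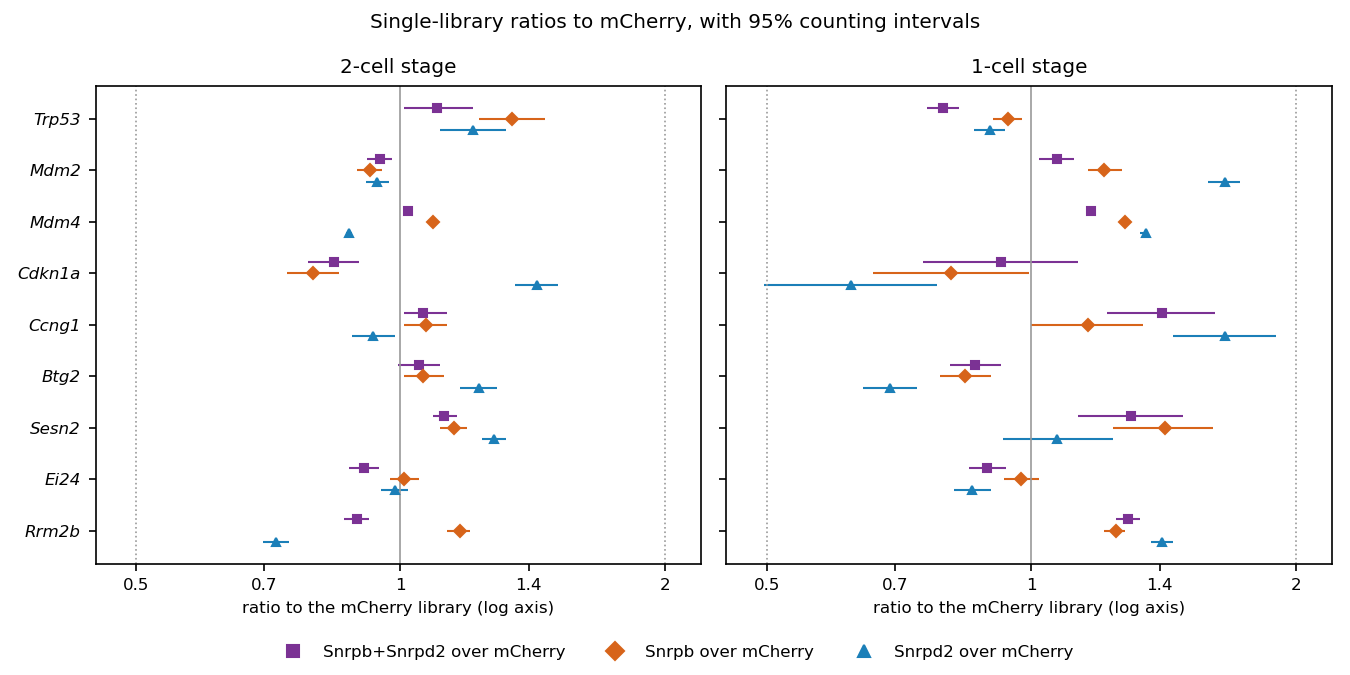
Ratio of each Sm library to the mCherry library of its stage for the 9 members with at least 50 reads (log axis), with TMM scaling and exact 95% intervals that cover counting error only. All points lie within the dotted lines at 2-fold, from 0.624 (Cdkn1a, 1-cell, Snrpd2) to 1.66 (Mdm2 and Ccng1, 1-cell, Snrpd2).

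Library against library, with no replicate check, none of the 9 members with at least 50 reads reached a 2-fold difference from mCherry. The share of all genes that did so with an interval beyond no change was 3.51% (both Sm mRNAs), 4.37% (Snrpb) and 4.31% (Snrpd2) at the 2-cell stage, and 4.16%, 4.66% and 5.16% at the 1-cell stage. The 4 ratios farthest from 1 at the 1-cell stage and the 2 farthest at the 2-cell stage came from the Snrpd2 libraries, and those with Snrpb reached 1.42 (Sesn2, 1-cell) and 1.34 (Trp53, 2-cell). At the 1-cell stage Mdm2 had a ratio of 1.66 (6062 reads in the Snrpd2 library against 3854 in the mCherry library, interval 1.59 to 1.73) and Ccng1 one of 1.66 (554 against 352 reads, interval 1.45 to 1.90), while Cdkn1a had 0.624 (126 against 213 reads, interval 0.497 to 0.782) Btg2 0.691 and Rrm2b 1.41. At the 2-cell stage Cdkn1a had a ratio of 1.43 (3158 against 1988 reads, interval 1.35 to 1.51), Btg2 one of 1.23 and Rrm2b one of 0.722. With Snrpd2, these 3 genes thus lay on opposite sides of mCherry at the 2 stages. So did Mdm2 (0.942 at the 2-cell stage), Ccng1 (0.932 there), Mdm4 (1.35 at the 1-cell and 0.874 at the 2-cell stage) and Trp53. Sesn2 (1.07 at the 1-cell and 1.28 at the 2-cell stage) and Ei24 (0.856 and 0.986) stayed on one side. For Trp53 the ratios were 1.1, 1.34 and 1.21 at the 2-cell stage (both Sm mRNAs, Snrpb, Snrpd2) and 0.794, 0.94 and 0.897 at the 1-cell stage.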

How the data were processed

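Polyadenylated RNA of 8 pools of embryos was sequenced (RNeasy Micro, SMARTer Stranded kit, HiSeq2500, per the labels' protocols). The authors deposited, for each library, whole-number counts of reads per gene and cRPKM, an RPKM value, with mm9 as the genome build per the submitters' processing notes. Aligner, annotation and strand setting were not given in the sources used here, so genes with near copies or overlaps are uncertain.

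Counts were tested with edgeR 4.0.16 (quasi-likelihood, TMM scaling, filterByExpr, Benjamini-Hochberg adjustment over all genes tested, threshold 0.05) in R 4.3.3. Injection and stage formed 1 additive model (16264 genes, 3 residual degrees of freedom). Stage by Sm or mCherry formed a 4-group model (16867 genes, 4 residual degrees of freedom). Intervals of fitted changes are the estimate and its SE with the t quantile at 95%. The SE was taken as the absolute log2 change over the square root of the test's F value. The t quantile used edgeR's total degrees of freedom, which exceed the residual ones because information is shared across genes. P-values of the additive model are set against how the change between stages differs between injections. For an injection effect in that model the 2 stages stand in for replicates. Those of the 4-group model are set against the spread between the differently injected Sm pools of a stage. Neither measures a spread between replicate pools. Single libraries were compared by exact conditional binomial 95% intervals where either library held 50 reads or more. The intervals, and the limit of 3 reads for a count of 0, describe counting error only, since amplified reads lacking molecular identifiers cannot be taken as separate molecules. DESeq2 1.42.0 and limma 3.58.1 (log2 of cRPKM plus 0.1 or 1), other scalings, filters and each left-out library were alternatives, and the edgeR and interval steps were tested on simulated data. Likeness was Pearson's r of log2 CPM with a prior of 0.5 over the 8 libraries, and the 3 genes with the highest r were named for Trp53, Mdm2 and Cdkn1a. In each wider list the 2 tested genes with the largest called change in each direction were named. One gene that this rule names is not reported here. Overlaps and near copies were looked up in GENCODE vM21 (GRCm38), no coordinates of which were joined to the mm9 counts. Promoter windows on mouse chromosome 18 were left out. Ptprv and Sco2 of the wider lists were not found among the symbols. Of the markers, Khdc3 (oocyte and early embryo) and Zscan4f (2-cell embryo) were not found, and the marker counts leave them out. The members and lists were chosen with earlier results of these data known.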

Additional observations from a re-analysis of the deposited data

How the results depend on the processing

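The stage effect was fitted with an injection term, which pairs the stages by injection, and leaving that term out changed no call on a member. The labels carry no replicate numbers for any other pairing. The calls on Trp53, Mdm2, Mdm4, Cdkn1a, Ccng1, Btg2, Sesn2 and Ei24 between stages were the same in all 15 alternatives, with log2 changes of -2.07 to -1.67 for Trp53, 0.655 to 1.08 for Mdm2, 3.31 to 3.91 for Cdkn1a and 4.03 to 4.51 for Sesn2, and the number of members called, 7 higher and 1 lower, did not change. Rrm2b and Phlda3 were not called in any. The sign of Rrm2b turned with library totals (0.178) and with limma (0.177 with a pseudocount of 0.1 and 0.172 with 1), and without the 2-cell (0.0583) or the 1-cell Snrpd2 library (0.0571), over a range of -0.261 to 0.0583 without single libraries. Phlda3 turned without the same 2 libraries (-0.174 and -0.168, range -0.174 to 1.48). Its 1-cell Sm change of -0.02 turned without the 2-cell Snrpd2 (0.00563), the 1-cell Snrpb (0.207) or the 1-cell Snrpd2 library (0.526), over a range of -1.3 to 0.526. With library totals the median of all genes was 0.41, against 0.15 with TMM. Of the genes named from the wider lists, only Aifm2 and Setd7 lost their call in any alternative, and of the list counts only the rising metabolism targets moved by over 1.5 times, to 11 in limma against 7.

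For genes called in Sm comparisons against 0, the settings gave, for both Sm mRNAs, 1 (library totals, size factors, no filter, limma with either pseudocount), 2 (DESeq2) and 0 to 1 without single libraries. For Snrpb they gave 0 to 1 without single libraries. For Snrpd2, against 1, they gave 2 (DESeq2) and 0 to 1. For any Sm injection they gave 2 at the 2-cell stage (limma, 0.1) and, at the 1-cell stage, 540 (DESeq2), 1 (limma, 0.1) and 0 to 3. For stage dependence they gave 63 (DESeq2) and 1 (limma, 0.1). The cause was not tested. With a minimum of 200 reads, which tests fewer genes, 72, 108 and 107 genes passed 2-fold at the 2-cell stage (both, Snrpb, Snrpd2; 461, 575 and 576 with 50 reads), and 140, 176 and 325 at the 1-cell stage (485, 545 and 597). No member was called in any of these. Among the members only Phlda3 had under 50 reads in every library.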
